A study of Mus musculus with 2 samples.

Results

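The genes of the cytosolic ribosome were described here by the Arid1b binding peaks at their ends. Members were the protein-coding genes of the RefSeq table for mm10 whose symbol starts with Rpl or Rps followed by a digit, or is Rplp0, Rplp1, Rplp2 or Rpsa, without the 10 Rps6k kinase symbols. This rule took 91 of 21883 protein-coding genes on chromosomes 1 to 19, X and Y. Of the 91, 56 carried large subunit symbols and 35 small subunit symbols. A gene was counted as having a boundary peak when any part of a deposited peak lay within 1 kb of its lowest or highest annotated position. Of the 91, 77 encode canonical ribosomal proteins (46 large, 31 small). The other 14 are paralogues, related copies and Rps19bp1, whose product binds Rps19 and is no subunit, so the label fits 77 of the 91 genes closely.

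Arid1b is the large ARID subunit, beside its paralogue Arid1a, of BAF-type SWI/SNF complexes, which use ATP to slide or evict nucleosomes. The data compare 1 Arid1b chromatin immunoprecipitation (ChIP) library, made with a Cell Signaling antibody, with 1 input library without antibody. Both came from primary cells labelled dental mesenchyme, grown in 10% serum from the apical part of first lower molars of wild-type C57BL/6 mice aged postnatal day 3.5 to 7.5. Although the study's title and design text name Arid1a and a Gli1-CreER;Arid1a fl/fl model, both libraries are of unmutated cells and the antibody is against Arid1b. Whether molars of several animals were pooled is not given in the sources used here. With 1 library per group there was no replicate check and no test, and each value describes these 2 libraries. A peak shows where Arid1b signal exceeded input, and it does not measure how much RNA a gene makes.

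Ribosomal proteins assemble with ribosomal RNA into a large subunit, which forms peptide bonds, and a small subunit, which decodes the message. Their genes are active in all cells and must be made in matched amounts, so they are often handled as one co-regulated family. Many of their mRNAs begin with a C and a run of pyrimidines, the terminal oligopyrimidine tract through which mTOR and Larp1 control translation. Many of the genes also carry small nucleolar RNAs (snoRNAs) in their introns, which guide the modification of ribosomal RNA.

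Arid1b peaks lay at the ends of most canonical ribosomal protein genes. Of all 91 members 53 had a boundary peak (58.2%), against 22.2% of all protein-coding genes. Among the 77 canonical genes the count was 50 (64.9%, exact binomial 95% interval 53.2 to 75.5%), and among the 14 others it was 3 (21.4%, 4.66 to 50.8%). Genes of like length, between 982 and 11774 bp as the canonical members are, had a boundary peak in 19.6% of cases. The 3 non-canonical members with a peak were Rpl7l1, Rpl36al and Rps19bp1. The 11 without one were Rpl22l1, Rpl37rt, Rpl34-ps1, Rps23rg1, Rps27l, Rps27rt, Rpl32l, Rpl10l, Rpl39l, Rpl31-ps12 and Rpl3l. Among these, Rpl3l and Rpl10l are known for expression in muscle and testis.

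The shares of large and small subunit genes lay close together. In the large class 32 of 56 genes had one (57.1%, 43.2 to 70.3%), and in the small class 21 of 35 (60.0%, 42.1 to 76.1%). The difference, large minus small, was -2.86 percentage points, with a Newcombe 95% interval of -22.3 to 17.5. Like the binomial intervals of the shares, it treats genes as independent draws and holds no spread between libraries. A difference between the classes was therefore not tested. Among canonical genes alone the counts were 30 of 46 (65.2%) and 20 of 31 (64.5%), which turns the sign of the difference.

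**Figure D1:**
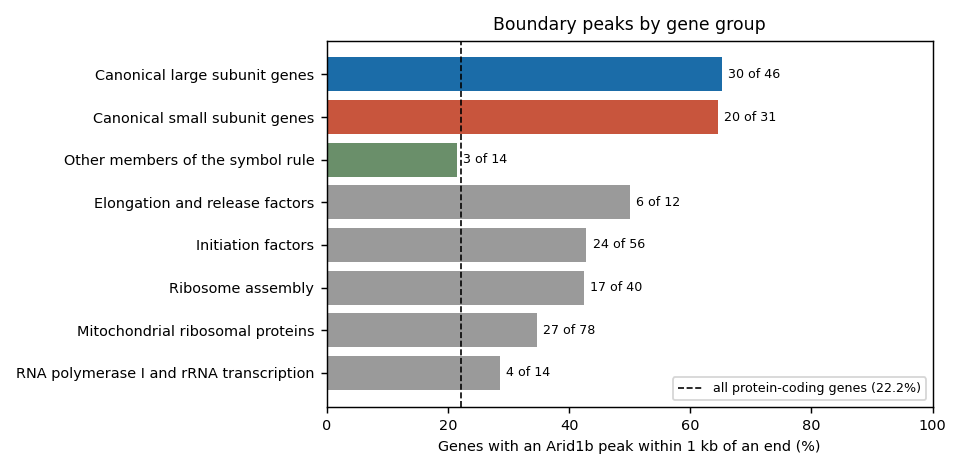
Share of genes (%) with an Arid1b peak within 1 kb of an annotated end, in bars by gene group, with the count beside each bar and the share of all protein-coding genes, 22.2%, as a dashed line. Both canonical classes lie near 65%, above every other group of the translation machinery shown, and the 14 other members lie at 21.4%.

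In the other lists of the translation machinery the share with a boundary peak ran between 28.6 and 50%, and differences between lists were not tested. Boundary peaks were present at 6 of 12 elongation and release factor genes, 24 of 56 initiation factor genes (42.9%) and 17 of 40 ribosome assembly genes (42.5%). Initiation factor genes were taken by symbol, Eif and a digit, which also takes the regulators Eif2ak3 and Eif4ebp1. Eif6 is counted both there and among the assembly genes. Mitochondrial ribosomal protein genes, which serve the separate ribosome of mitochondria, had one at 27 of 78 (34.6%). Genes of RNA polymerase I and ribosomal RNA transcription had one at 4 of 14 (28.6%). The strongest of each list were at Eif4a2, an RNA helicase of initiation (6.90, 5.39 to 8.71), Eef1d, an exchange factor subunit of elongation (6.77, shared with Tigd5), the mitochondrial Mrpl11 (5.58), Pno1, a small subunit assembly factor (5.37, shared with Wdr92), and Polr1a, the largest polymerase I subunit (5.06, shared with Ptcd3). Among ribosome components whose symbols fall outside the rule, Rack1 had a boundary peak (4.40, shared with Trim41). Fau, which encodes a ribosomal protein fused to a ubiquitin-like protein, had none.

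As a check of the labelled cell type, boundary peaks were counted at marker genes, which shows binding and not expression. Dental mesenchyme had them at 13 of 15 markers, with none at Prrx1 and Lhx6. The counts were 2 of 8 for dental epithelium (Ambn among them), 0 of 5 for blood and immune cells and 0 of 4 for endothelium, beside 22.2% of all protein-coding genes. Lists of 4 to 8 genes at such a background do not tell cell types apart. Whether cells of other types contributed to the libraries was not tested.

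The peaks at ribosomal protein genes were of ordinary strength. Fold below is the authors' enrichment of ChIP over the expected input level at the summit, a linear ratio, followed by the exact Poisson 95% interval of the fragment pileup recovered at that summit. Counting error is all that these intervals hold, and fragments of one amplified library need not be separate molecules. Taking the strongest boundary peak of each gene, the median fold was 4.03 (quartiles 3.42 and 4.34) over the 53 members, against 3.92 (3.45 and 4.54) over all 4856 protein-coding genes with one. The members ranged from 2.58 to 6.71, whereas all genes reached 13.2. A fold of at least 5 occurred at 5 of the 53 members (9.43%), against 720 of the 4856 genes (14.8%). Counted over whole lists, those are 5 of 91 members (5.49%) against 3.29% of all protein-coding genes. Among the 77 canonical genes the count was 3 (3.90%), and the others were the non-canonical Rpl7l1 and Rpl36al. The interval of 46 of the 53 members included the median fold of all genes, so few members could be told apart from an average peak at a median pileup of 40 fragments.

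The strongest was Rplp0, which encodes the stalk protein P0 that recruits translation factors, with a peak at chr5:115559491-115559831 (mm10), a fold of 6.71 (5.19 to 8.54) and a pileup of 64 fragments. It ranked 169th of the 8318 peaks. The peak begins 24 bp inside the gene. Its promoter, 250 bases before to 50 after the annotated start (chr5:115559217-115559516, + strand, RefSeq, GRCm38.p6), is shown as that of the strongest member, with matches to GGGCGG and TATAAA in capitals.
Rplp0: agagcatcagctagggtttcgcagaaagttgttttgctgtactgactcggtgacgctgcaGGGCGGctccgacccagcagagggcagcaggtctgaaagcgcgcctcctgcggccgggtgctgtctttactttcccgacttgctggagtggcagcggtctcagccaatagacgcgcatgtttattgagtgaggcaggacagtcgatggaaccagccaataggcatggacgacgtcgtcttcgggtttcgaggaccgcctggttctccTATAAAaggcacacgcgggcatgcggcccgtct
The TATAAA match starts 17 bases downstream of the annotated start, and the peak overlaps the last bases of this window.

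Next among large subunit genes came Rpl7l1, a homologue of Rpl7 (6.09, 4.65 to 7.85), and Rpl36al, an autosomal copy of the X-linked Rpl36a (5.68, 4.29 to 7.38). Neither is a canonical subunit gene, and both peaks are shared with a neighbour. They were followed by Rpl10a, a protein of the mobile stalk where spent transfer RNA leaves (5.26, 3.93 to 6.90), Rpl22, an RNA-binding surface protein (4.85, 3.58 to 6.44), and Rpl41, the smallest ribosomal protein (4.75, 3.49 to 6.32). Rpl7a reached 4.69 (3.48 to 6.19), Rpl4, which lines the exit tunnel, 4.65 (3.4 to 6.2), Rpl27 4.63 (3.42 to 6.15) and Rpl29 4.54 (3.32 to 6.08). The intervals of these 10 large subunit genes, Rplp0 included, overlap one another. The peaks ranked here for Rpl10a, Rpl41, Rpl7a and Rpl4 are shared with a neighbour as well.

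Rps26 led the small subunit genes. Its protein lies at the exit of the mRNA channel. It carried a pair of peaks, one upstream of the start at chr10:128626520-128626745 with a fold of 5.37 (4.02 to 7.03), and one downstream at chr10:128626063-128626413 with 3.75 (2.67 to 5.13). The upstream interval runs from 239 to 14 bp before the start and therefore lies wholly inside the promoter window, which is shown for that reason (chr10:128626457-128626756, - strand, GRCm38.p6) with CCGGAAG in capitals.
Rps26: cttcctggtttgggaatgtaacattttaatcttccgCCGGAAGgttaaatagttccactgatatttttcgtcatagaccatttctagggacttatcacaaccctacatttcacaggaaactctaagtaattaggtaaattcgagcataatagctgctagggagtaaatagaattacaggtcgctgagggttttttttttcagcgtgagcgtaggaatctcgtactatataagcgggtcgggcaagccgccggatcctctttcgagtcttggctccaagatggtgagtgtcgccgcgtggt
Behind it were Rps18 (4.83, 3.69 to 6.2), Rps6, the substrate of the S6 kinases downstream of mTOR (4.77, 3.57 to 6.24), and Rps19, a gene mutated in Diamond-Blackfan anaemia (4.18, 3.11 to 5.49). Rps15a had 4.14 (3.0 to 5.58), Rpsa, also known as the laminin receptor, 4.10 (2.96 to 5.55), Rps3a1 4.09 (3.08 to 5.33), Rps2 3.90 (2.79 to 5.32) and Rps12 3.82 (2.71 to 5.25), level with Rps19bp1. The intervals of these small subunit genes overlap one another. The peaks ranked here for Rps18 and Rps2 are shared with a neighbour.

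**Figure D2:**
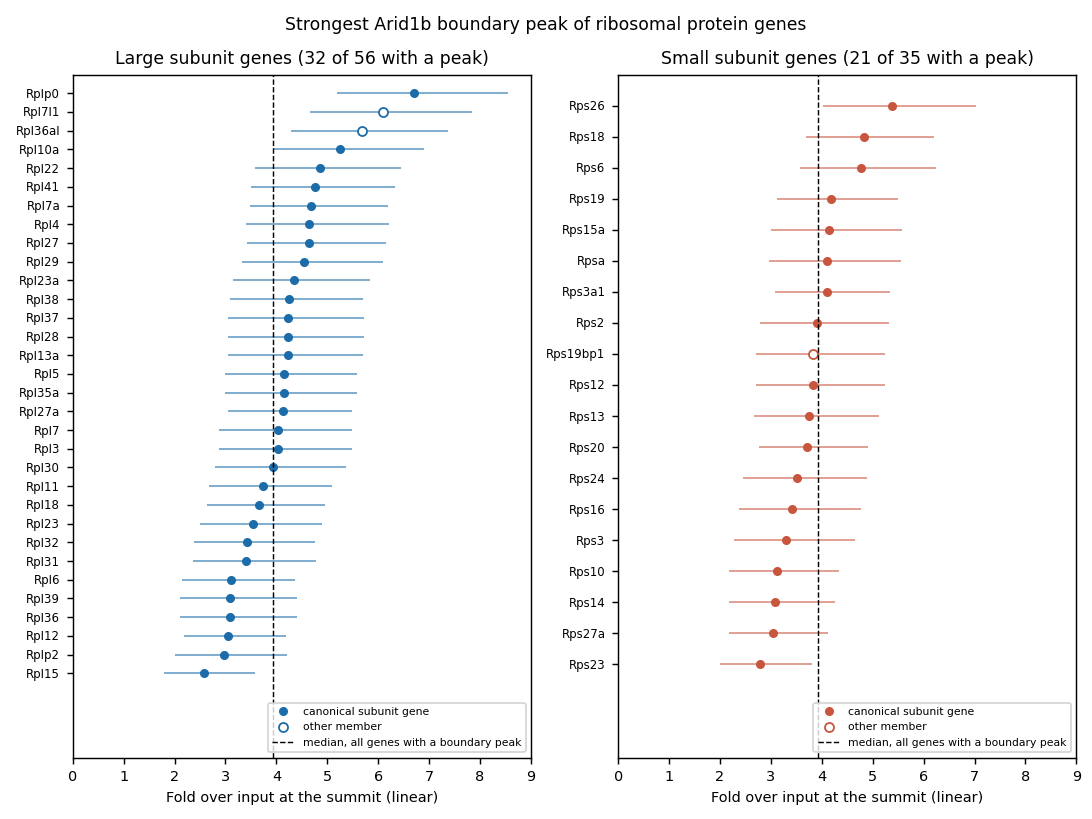
Fold over input (x axis, linear) of the strongest boundary peak of members that had one, a few of them not drawn, large subunit genes on the left and small subunit genes on the right, with exact Poisson 95% intervals as bars. Open circles are members that are no canonical subunit gene, and the dashed line is the median of all genes with a boundary peak, 3.92, which most intervals cross.

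At the weak end stood Rpl15 (2.58, 1.80 to 3.59), Rps23, a protein of the decoding centre (2.79, 2.0 to 3.81), Rplp2, a stalk protein that binds Rplp0 (2.96, 2.02 to 4.21), Rps27a, made as a fusion with ubiquitin (3.03, 2.18 to 4.12), and Rpl12 at the stalk base (3.06, 2.18 to 4.18). Thus the partners of one structure differed. In the stalk, Rplp0 had the strongest member peak, Rplp2 one of the weakest, and Rplp1 none, with its nearest peak 210654 bp away. Rpl5 (4.14) and Rpl11 (3.73), which bind Mdm2 together when ribosome assembly fails, had peaks of like fold, with overlapping intervals of 3.0 to 5.58 and 2.67 to 5.09. Rpl38, linked in mice to translation of Hox messages, had 4.24 (3.08 to 5.69). The remaining members with a boundary peak had strongest folds from 3.09 at Rps14 to 4.34 at Rpl23a.

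The median strongest fold was 4.14 (quartiles 3.52 and 4.64) for the 32 large subunit genes and 3.82 (3.41 and 4.14) for the 21 small subunit genes. The quartile ranges of the classes overlap, and the gap between the medians was not tested. Single summits carried wide intervals, as at Rpl7 (4.03, 2.88 to 5.49, at 38 fragments), which do not measure the spread of a median over many genes. The expected input level differed between the classes as well. It exceeded the genome background of 8.68 at 16 of 32 large subunit genes (50%) and 16 of 21 small subunit genes (76.2%), against 54.0% of all genes with a boundary peak. A raised expected level lowers the fold of a given pileup, and the median pileup was 40.5 fragments in large and 38 in small subunit genes. The part of input in the lower fold was not tested.

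Widths, too, were ordinary. The strongest boundary peaks had a median width of 300.0 bp (quartiles 228 and 428), against 318 bp (241 and 474) over all genes with one. For large subunit genes the median was 315.5 bp and for small subunit genes 258 bp, both within the quartiles of all genes. Among the widest were those at Rpl7l1 (870 bp), Rpl22 (865 bp), Rpl36al (823 bp) and Rpl10a (711 bp, at the start of that gene, fold 3.87). None of the 64 distinct member peaks reached 1 kb, which allows a share of up to 4.69%, against 224 of 5272 boundary peaks of all genes (4.25%). A lack of wide domains particular to these genes was therefore not detectable.

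**Figure D3:**
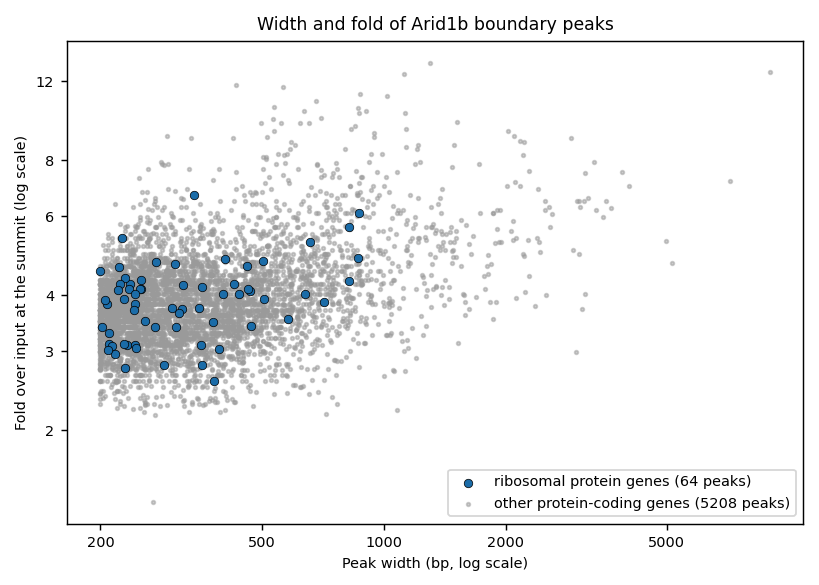
Width (bp, log scale) against fold over input (log scale) of every boundary peak of a protein-coding gene, each counted once, with the 64 peaks of ribosomal protein genes in blue over those of all other genes in grey. The blue points lie in the body of the cloud, between 200 and 870 bp and between folds of 2.58 and 6.71, and none is among the wide peaks at the right.

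Summits lay mostly a short way inside the gene. RefSeq start sites with strand were at hand for 70 of the 91 members. Of these, 42 had a peak within 1 kb of a start (60.0%), against 23.9% of the 17491 protein-coding genes with a start in the same table. Their 45 summits had a median position 203 bp downstream of the start (quartiles 130 and 290), against 177 bp (-134 and 309) for the 5123 summits of all genes. Downstream summits made up 35 of 45 (77.8%), against 69.4% of all. Those 100 to 500 bp downstream made up 32 of 45 (71.1%), against 51.6% of all. No member summit lay within 50 bp of a start, which allows up to 6.67%, against 3.77% of all summits. The peak interval covered the start at 8 of 45 member peaks (17.8%) and at 20.9% of all. Where a gene has several listed starts, the one nearest to the summit was used. Over genes with 1 start, 32 of 38 member summits lay downstream (84.2%), against 71.3% of all. There the peak covered the start at 3 of 38 (7.89%), against 17.6% of all.

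Both classes had most summits downstream. Large subunit summits had a median of 206 bp (26 summits) and small subunit summits 194 bp (19 summits). Mitochondrial ribosomal protein genes had a median of 128 bp over 27 summits, with 15 (55.6%) between 100 and 500 bp, and initiation factor genes 241 bp over 24, with 14 (58.3%) in that range. Over peaks that reach no other coding gene end, member summits had a median of 205 bp and 77.1% lay 100 to 500 bp downstream, against 196 bp and 55.2% for all genes. These shares describe 1 library, and the difference was not tested.

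**Figure D4:**
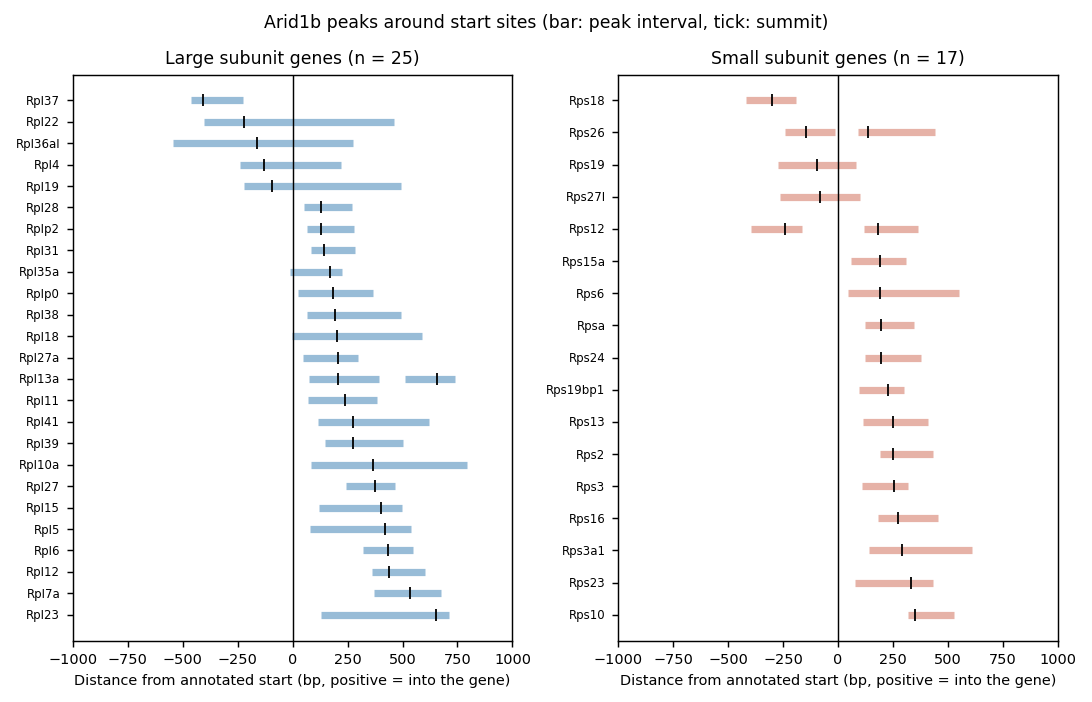
Arid1b peaks within 1 kb of the annotated start of each member with a start in the RefSeq table, as bars from first to last base with the summit as a tick, against distance from the start (bp, positive into the gene), large subunit genes on the left and small on the right. In most rows the bar begins to the right of the start, and Rps26 and Rps12 have a bar on each side.

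**Figure D5:**
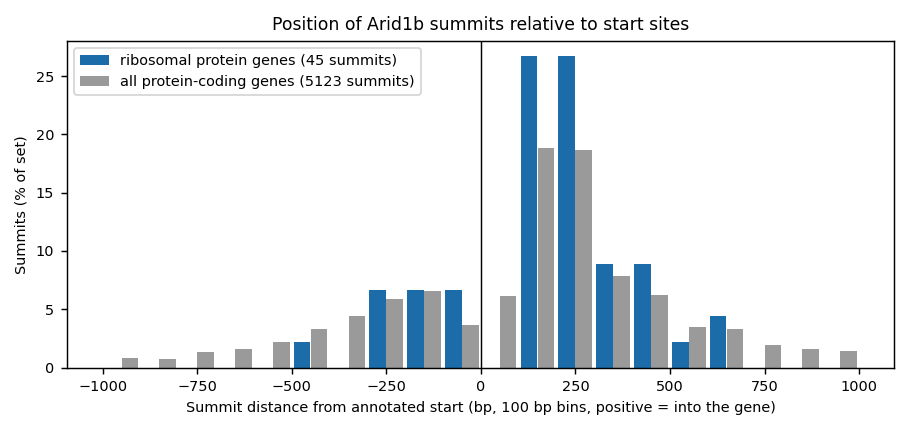
Share of summits (%) in 100 bp bins of distance from the annotated start, for the 45 summits of ribosomal protein genes and the 5123 of all protein-coding genes. Both sets are highest between 100 and 300 bp downstream, where each of the 2 bins holds 26.7% of the member summits and 18.8% or 18.7% of all summits.

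Single genes show the range of these positions. At Rpl28 the summit lay 127 bp downstream of the start (fold 4.23), at Rps15a 189 bp (4.14), at Rps6 192 bp, at Rpsa 194 bp, at Rpl27a 205 bp (4.14) and at Rpl11 237 bp. The farthest were Rpl7a at 534 bp, Rpl23 at 653 bp (3.55) and a weak second peak of Rpl13a at 655 bp (2.75). Upstream summits occurred at Rpl37 (-406 bp), Rps18 (-299 bp), Rps12 (-243 bp, 3.10), Rpl22 (-221 bp), Rpl36al (-163 bp), Rps26 (-146 bp), Rpl4 (-131 bp), Rpl19 (-95 bp), Rps19 (-94 bp) and Rps27l (-84 bp). Of these, Rpl22, Rpl19, Rps19 and Rps27l have several listed starts, and their summits lay upstream of an inner start but inside the gene. Rps12, like Rps26, had a peak on each side of the start, the downstream one at 184 bp.

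Annotated ends and start sites did not always coincide. Rpl19 (4.58, 3.43 to 5.99) and Rps27l (3.26, 2.41 to 4.31) had a peak at a start inside the gene although none lay within 1 kb of their outer ends. Rpl18 had a start peak of 5.22 (3.96 to 6.75), beside its boundary peak of 3.66 (2.64 to 4.95), an overlapping interval, and Rps2 had one of 3.70 besides its boundary peak. Rpl7l1 went the other way: its peak lay 421 bp beyond the end opposite its start, and the summit was 371 bp downstream of the start of the neighbour 2310039H08Rik. Near the limit of 1 kb, Rps2 (818 bp), Rpl38 (827 bp) and Rpl22 (889 bp) were counted, and Rps27l (1524 bp) and Rpl17 (1612 bp) were not.

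Many member peaks reached a neighbouring gene. Of the 64 distinct member peaks, 22 (34.4%) also reached within 1 kb of another protein-coding gene end, against 17.2% of the 5272 boundary peaks of all genes. Among large subunit genes 18 of 41 peaks were shared (43.9%), and among small subunit genes 5 of 24 (20.8%). In these counts 1 peak stands in both classes, since it reached a gene of each. Another coding gene end lay within 1 kb at 32 of the 91 members, against 5425 of the 21883 protein-coding genes. By class it was 24 of 56 large subunit genes and 8 of 35 small subunit genes. A boundary peak was present at 20 of these 32 members (62.5%) and at 33 of the 59 others (55.9%), against 35.1% and 17.9% of all protein-coding genes. The classes ran in opposite directions here. Large subunit genes had a peak at 17 of 24 with such a neighbour and 15 of 32 without, and small subunit genes at 3 of 8 and 18 of 27.

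For some shared peaks the start sites show which gene's start lay nearer to the summit. Which gene such a peak belongs to was not tested. The shared peaks made 23 pairs of a member with a peak. In 7 pairs the summit was nearer to the neighbour's start, and in 4 it was nearer to the member's. For the other 12 no start of the neighbour was listed within 1 kb of the peak, so the distances were not compared. Some members of these 12 do have a start near the peak, as Rpl4 (-131 bp) and Rplp2 (130 bp). The strongest Rpl41 peak (4.75) sat 115 bp downstream of the start of Zc3h10, while the second (3.92), also within reach of Zc3h10, sat 273 bp downstream of the Rpl41 start. Both Rps18 peaks lay near neighbours, 123 bp downstream of the start of B3galt4 (4.83) and 82 bp downstream of that of Vps52 (4.38). Rpl4 had 3 boundary peaks, 1 shared with Zwilch (4.65) and 2 on either side of the Snapc5 start (3.03 at -143 bp and 4.03 at 141 bp). By contrast, Rpl7a (shared with Med22), Rpl12 (with Lrsam1, 3.06) and Rpl35a (with Iqcg, 4.14) had summits nearer to their own starts. The other sharing pairs were Rpl7 with Rdh10 (4.03), Rpl10a with Tead3 (5.26), Rpl15 with Nkiras1, Rpl27a with Denn2b (2.80), Rpl36 with Lonp1 (3.10), Rpl37 with Card6 (4.23), Rplp2 with Pidd1, Rps2 with Ndufb10 (3.90) and Rps27a with Clhc1.

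Rpl36al and Mgat2, which encodes an enzyme of N-glycan synthesis, illustrate a shared start region. The peak at chr12:69183791-69184613 spans 823 bp. Its summit lies 163 bp upstream of the Rpl36al start and 72 bp downstream of the Mgat2 start. The Rpl36al promoter (chr12:69184018-69184317, - strand, GRCm38.p6) lies wholly within the peak and is shown for that reason, with GGGCGG matches, on the opposite strand, in capitals.
Rpl36al: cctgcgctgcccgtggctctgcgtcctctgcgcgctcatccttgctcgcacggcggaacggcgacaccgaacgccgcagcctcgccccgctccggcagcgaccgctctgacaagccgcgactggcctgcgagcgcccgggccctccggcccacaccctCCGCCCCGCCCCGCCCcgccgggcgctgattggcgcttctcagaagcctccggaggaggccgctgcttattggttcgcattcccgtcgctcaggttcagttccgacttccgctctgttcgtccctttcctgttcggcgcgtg

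The share with a boundary peak was larger among members that host snoRNA genes. Of the 77 canonical genes 30 contain an annotated snoRNA gene, 59 snoRNA genes in all. A boundary peak lay at 25 of these 30 hosts (83.3%) and at 25 of the 47 others (53.2%). For small subunit genes it was 10 of 10 hosts and 10 of 21 others, and for large subunit genes 15 of 20 and 15 of 26. Hosts and others were of like length, with medians of 3179 and 3164 bp. Outside the family, hosts had a boundary peak in 125 of 342 cases (36.5%) and other genes in 21.8%. Among genes as long as the canonical members those shares were 21 of 38 (55.3%) and 18.9%. Of the 64 member peaks, 5 overlapped an annotated snoRNA itself, among them those at Rpl7a, Rpl3, Rpl6 and Rpl23. The like share over all boundary peaks is not given here. An end of a noncoding gene of any type lay within 1 kb of 22 of the 64 member peaks (34.4%). Over the 5272 boundary peaks of all protein-coding genes that share was 17.6%. The hosts without a boundary peak included Rpl10, Rpl13, Rpl17 and Rpl21. These counts were chosen after the values were seen and were not tested.

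Promoter motifs were compared between members with and without a boundary peak. All 38 canonical members with a boundary peak and a listed start also had a peak within 1 kb of a start. Among those without a boundary peak, only Rpl19 had a start peak. The window from 250 bases before to 50 after the start was searched in 57 canonical members on both strands. CCGGAAG, the core bound by ETS factors, was found in 17 of 38 canonical members with a boundary peak (44.7%) and 6 of 19 without (31.6%), against 11.9% of all 17491 promoters. GCCATNTT, the YY1 core, was found in 6 of 38 and 5 of 19 (15.8% and 26.3%), against 6.65%. GGGCGG, the Sp core, was found in 26 of 38 and 8 of 19 (68.4% and 42.1%), against 46.3%. TATAAA was found in 10.5% of each group, against 13.3%. CACGTG, the E-box that Myc binds, was found in 2 of 38 and 3 of 19, against 7.91%. TGANTCA, the AP-1 element, was found in 0 of 38 and 1 of 19, against 7.03%. No motif is contained in another, and matches of different motifs may overlap in place. A match is only a match of letters, and its absence says nothing about the factor.

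CTTTC, read on the strand of the gene anywhere in the same window, was present in 27 of 38 canonical members with a boundary peak (71.1%) and 9 of 19 without (47.4%), against 33.0% of all promoters. Some of these matches lie far upstream of the start, as at Rplp0 (-121) and Rps3 (-143). The annotated start was searched for its pyrimidine run. The longest run of C and T that overlaps the stretch from 5 bases before to 10 after the start had a median of 7 bases in canonical members with a boundary peak, 4 in those without, and 4 in all promoters. A run of at least 8 bases was found in 17 of 38 (44.7%), 4 of 19 (21.1%) and 11.3%. Median GC content was 59.2% with a peak and 56.3% without, and 56.3% over all promoters. These groups were not compared by a test, and both hold long and short runs at the annotated start. To show this, 20 bases before and 20 from the start onwards are printed for 4 members with a boundary peak (Rpl28, Rps6, Rplp0 and Rpl41, with runs of 11, 10, 4 and 3 bases) and 4 without (Rpl35, Rps27, Rpl9 and Rps15, with runs of 18, 9, 4 and 3 bases). They were chosen after their values were seen, and the run is in capitals. Runs were read at the annotated start only, and whether transcription begins there was not tested. At Rplp0 the TATAAA match starts 17 bases downstream of the annotated start. At Rpl9 the run ttctctcttt lies downstream of the searched stretch. A short run here therefore does not show that a gene lacks a terminal oligopyrimidine tract.
Rpl28: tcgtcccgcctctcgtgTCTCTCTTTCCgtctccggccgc
Rps6: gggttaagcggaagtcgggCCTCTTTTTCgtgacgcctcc
Rplp0: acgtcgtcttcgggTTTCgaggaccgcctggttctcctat
Rpl41: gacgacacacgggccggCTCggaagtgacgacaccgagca
Rpl35: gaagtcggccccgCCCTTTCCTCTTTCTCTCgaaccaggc
Rps27: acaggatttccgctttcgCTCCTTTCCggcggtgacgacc
Rpl9: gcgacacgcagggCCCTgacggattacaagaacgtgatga
Rps15: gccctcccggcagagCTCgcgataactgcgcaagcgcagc
They lie at chr7:4792945-4792984 (+), chr4:86857348-86857387 (-), chr5:115559447-115559486 (+), chr10:128549149-128549188 (-), chr2:39005112-39005151 (-), chr3:90213629-90213668 (-), chr5:65391412-65391451 (-) and chr10:80292411-80292450 (+) in GRCm38.p6, in that order, with the strand in brackets.

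The 27 canonical genes without a boundary peak were 16 of the 46 large and 11 of the 31 small subunit genes. In the large subunit they included Rpl37a, Rpl35, Rpl34, Rpl9, Rpl21, Rpl13, Rplp1, Rpl14, Rpl26, Rpl19, Rpl8, Rpl24, Rpl17, Rpl10 and Rpl36a. In the small subunit they included Rps21, Rps27, Rps9, Rps25, Rps15, Rps7, Rps29, Rps28 and Rps4x. Of the 38 members without a boundary peak, 3 had a peak inside the gene (Rps27l, Rpl19 and Rpl17) and 5 had one within 10 kb outside it. These 5 were Rpl24 (2386 bp), Rpl14 (2724 bp), Rpl35 (3038 bp), Rpl3l (4877 bp) and Rps29 (9385 bp). For 15 members the nearest peak was 10 to 100 kb away, among them Rpl8 (18823 bp), Rpl10 (25474 bp), Rps15 (26979 bp), Rps27 (34541 bp), Rpl13 (36531 bp), Rps23rg1 (36628 bp), Rpl21 (37538 bp), Rps28 (43222 bp), Rps25 (46039 bp), Rpl37rt (48168 bp), Rpl26 (48580 bp), Rpl31-ps12 (50678 bp), Rps9 (58000 bp) and Rps21 (85502 bp). For 10 it was 100 kb to 1 Mb away, among them Rpl9 (101112 bp), Rpl32l (103573 bp), Rpl37a (127766 bp), Rpl34-ps1 (146739 bp), Rps27rt (200637 bp), Rplp1 (210654 bp), Rpl34 (284044 bp) and Rpl39l (367758 bp). For 5 it was over 1 Mb away, namely Rpl22l1 (1094277 bp), Rpl10l (1110485 bp), Rps7 (1288222 bp), Rps4x (1791454 bp) and Rpl36a (2518441 bp), with both Rps4x and Rpl36a on the X chromosome. A gene without a listed peak is one where no peak passed the authors' threshold, and weaker binding was not detectable at this depth.

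Most members with a boundary peak had just 1. Of the 53, 44 had 1 peak, 6 had 2 and 3 had 3, so 17.0% had more than 1, against 21.7% of all genes with one. The 3 with 3 peaks were Rpl4, Rpl10a and Rpl13a. Those with 2 were Rpl27a, Rpl30, Rpl41, Rps12, Rps18 and Rps26. At Rpl10a the peaks lay along the whole gene, with folds of 3.87 at 365 bp from the nearest start, 4.03 inside the gene and 5.26 beyond its far end at Tead3. Rpl30 had a peak inside the gene (3.41) and one outside it (3.92), 117 bp on either side of the same end. Both folds fall within each other's interval.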

How the data were processed

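Peaks of the Arid1b ChIP over input, 1 library each, were used as the authors deposited them. The submitters' processing notes name MACS2 2.1.1, Bowtie2 2.2.5, FastQC 0.11.8 and Picard beside the build mm10, and give no role for any. For duplicate removal, reads that map to several places and library depth, the entry is: not given in the sources used here. Exons of ribosomal protein genes have many pseudogene copies, and an effect of this on peaks was not tested. The deposited list gives for each peak a fold over input (a linear ratio), a -log10 p-value and q-value, and a score equal to 10 times the -log10 p without decimals, which was not used, besides the summit offset.

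Whole summit pileups and expected input levels were recovered by solving the MACS2 fold (pileup plus 1 over expected plus 1) and Poisson p-value together. All 8318 peaks were solved within 0.001 in -log10 p. The method and the assignment of peaks to gene ends were tested on simulated data. Gene ends and starts came from RefSeq tables of GRCm38.p6, the assembly named mm10. The start table lists 70 of 91 members and 17491 coding genes. For motifs, 1 window per gene was used, that with its start nearest to the outer end.

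The members, gene lists and comparisons were chosen with earlier results of these data known. Named by rule were the 10 strongest members per class, the 5 weakest, the 5 widest peaks, members with shared peaks, those near 1 kb, those without a peak, and up to 4 of the strongest in other lists. Some genes that this rule takes are counted but not reported by name here. Members named for snoRNAs, paired peaks or roles were chosen after their values were seen. Genes are not replicates, so counts and medians stand beside those of all genes without tests. Python 3.11.15, pandas 2.3.3 and scipy 1.17.1 were used. Alternatives covered windows, q-values, summits, start sites, local input, canonical genes and merged peaks.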

Additional observations from a re-analysis of the deposited data

How the results depend on the processing

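The median fold (4.03) and width (300.0 bp) of member peaks stayed inside their binomial 95% intervals under all 6 alternatives tried for each. The 53 members with a boundary peak became 27 with -log10 q of at least 10 (background 10.5% of all coding genes) and 21 when a peak needed a local input no higher than background (11.0%), and stayed within 1.5 times under the other 7 that count members. Merging peaks closer than 500 bp left 59 intervals of the 64 member peaks. Large minus small share, -2.86 points, turned sign in 5 of 9 alternatives: 5.0 points with a 5 kb window, 6.43 with -log10 q of at least 10, 2.14 with peaks in the gene or within 10 kb, 14.3 with local input at background, and 0.701 for canonical genes. The 22 shared peaks of 64 (34.4%) became 61 of 87 (70.1%) with a 5 kb window, where more neighbours are in reach, and 10 of 30 (33.3%, a like share of fewer peaks) with -log10 q of at least 10. The cause of the changes in members and in the sign was not tested. No paired analysis was possible because each group has 1 library, and no library could be left out. Depth limits single peaks: a median pileup of 40 fragments leaves most folds indistinguishable.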

Other observations

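Genes of mTOR signalling and of growth and translation control carried boundary peaks at 5 of 12 members, against 22.2% of all protein-coding genes. Maf1, a repressor of RNA polymerase III, had 6.24 (4.86 to 7.89, a peak shared with Sharpin), Tsc1, an inhibitor of mTOR signalling, had 5.78 (4.38 to 7.5), and Eif4ebp1, the mTOR-regulated binder of the cap factor, had 5.52 (4.18 to 7.16). Rptor, the scaffold of mTOR complex 1, had 4.13 and Mtor itself 3.06 (shared with Exosc10). No boundary peak was listed at Larp1, Myc, Rps6kb1, Rps6kb2, Eif4ebp2, Tsc2 or Akt1s1.

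Among the ribosome assembly genes with a summit position from a start, summits lay downstream at Ddx18 (125 bp), Nmd3 (171 bp), Nop56 (189 bp), Nop2 (192 bp), Wdr43 (237 bp), Ebna1bp2 (240 bp), Ddx21 (243 bp), Ncl (244 bp), Gtpbp4 (283 bp) and Gar1 (382 bp). They lay upstream at Wdr12 (-97 bp), Pno1 (-195 bp), Nop14 (-618 bp) and Rrp9 (-845 bp). All of these upstream peaks are shared with a neighbour, in that order Carf, Wdr92, Grk4 and Parp3. Of the downstream peaks only that at Ebna1bp2 is shared, with Cfap57. Which gene the shared peaks belong to was not tested. The median over all protein-coding genes was 177 bp downstream.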
